A study of Mus musculus with 3 samples.

Results

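CpGs that carried more methylation in Dnmt3a KO than in wild-type mouse embryonic stem cells are described here. A CpG was taken as higher when it had more than 20 reads in both libraries and its methylated share was at least 20 percentage points greater in Dnmt3a KO. This rule took 377 of the 327114 CpGs that both libraries covered to this depth, or 0.115%, while 6.33% of the same CpGs (20722) were lower by at least 20 points. The 377 CpGs lay in 208 windows of 1000 bp, of 31843 windows that held any shared CpG. Of the higher CpGs, 37 had over 1000 wild-type reads and 340 had 1000 or fewer. They made up 10.1% of the 368 shared CpGs over that depth and 0.104% of the 326746 at or under it. The CpGs were chosen by the wild-type and Dnmt3a KO methylation levels themselves, so the difference between both libraries is given as a description and was not tested.

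Methylation was measured by reduced-representation bisulfite sequencing (RRBS), which cuts DNA with MspI at CCGG and sequences size-selected fragments after bisulfite treatment, in 1 library for each of 3 genotypes. Wild-type cells came from blastocysts of a mixed 129-C57Bl/6 background and were grown on feeder cells or gelatine. Dnmt3a KO cells have the same mixed background, were grown on gelatine and had been made with CRISPR/Cas9 and a pair of guides against exon 7 of Dnmt3a (whether they are 1 clone is not given in the sources used here). Dnmt TKO cells, of strain J1 and also grown on gelatine, lack DNMT1, DNMT3A and DNMT3B. The wild-type, Dnmt3a KO and Dnmt TKO libraries held 47688375, 21602895 and 9308942 reads summed over CpGs, and the shared CpGs had a median of 80 and 33 reads in the former 2 and of 15 at the 231071 of them listed for Dnmt TKO. With 1 library per genotype, no difference has a replicate check, strain and culture cannot be told apart from genotype, and intervals (95%) cover counting error only. The RRBS reads do not test the deletion itself, since methylation of the 74 shared CpGs within Dnmt3a says nothing about the cut exon.

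DNMT3A and DNMT3B place methyl groups on unmethylated CpGs, and DNMT1 copies existing methylation after replication. The major satellite is a tandem repeat rich in A and T that forms the heterochromatin beside the centromeres of mouse chromosomes, and little of it is present in the assembled genome. Imprinted genes carry methylation on the copy from only one parent at their control regions, so that a mixture of methylated and unmethylated reads is their usual state.

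Sequences of the loci on which the results turn are printed here from the NCBIM37 assembly, which mm9 names, on the plus strand, with each higher CpG in capitals. The first is 1 repeat unit of 234 bases at the start of the assembled part of chromosome 9 (chr9:3000615-3000848), and the next surrounds the deepest higher CpG (chr2:98507256-98507356). The unit is called satellite here because its length, base composition and place are those known for the mouse major satellite, and no repeat annotation was used to name it. The others are the Sfi1 stretch on chromosome 11 (chr11:3032013-3032099), Nnat (chr2:157386122-157386190), Trappc9 (chr15:72640421-72640478) and Plagl1 (chr10:12810530-12810560).
chr9 unit: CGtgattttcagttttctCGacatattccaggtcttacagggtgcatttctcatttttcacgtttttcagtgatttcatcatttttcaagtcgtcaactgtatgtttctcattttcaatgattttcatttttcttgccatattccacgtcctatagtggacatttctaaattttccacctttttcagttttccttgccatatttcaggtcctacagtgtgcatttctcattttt
chr2 deepest: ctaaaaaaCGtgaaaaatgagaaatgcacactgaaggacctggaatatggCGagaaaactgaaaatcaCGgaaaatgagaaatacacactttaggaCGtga
Sfi1: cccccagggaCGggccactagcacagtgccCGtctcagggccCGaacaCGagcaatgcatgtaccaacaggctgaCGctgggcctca
Nnat: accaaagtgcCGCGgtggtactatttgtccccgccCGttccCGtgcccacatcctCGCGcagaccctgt
Trappc9: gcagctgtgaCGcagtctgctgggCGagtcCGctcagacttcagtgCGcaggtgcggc
Plagl1: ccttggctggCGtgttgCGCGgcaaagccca

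The higher CpGs fell into 6 groups by sequence and place. A CpG was called satellite-like when the 101 bases around it aligned to the printed unit with a score of at least 50 (match 1, mismatch -1, gap -2). There were 143 higher CpGs in satellite-like sequence, 38 in a stretch of chromosome 11 over Sfi1, 20 within 5000 bp of genes on a list of imprinted genes, 36 in other sequence present more than once in the genome, 134 in other single-copy sequence and 6 on unplaced sequence. Single copy means here that the 32 bases around the CpG occur once in NCBIM37. Of the 37 CpGs over 1000 wild-type reads, 36 were satellite-like, and the remaining CpG lay beside them on chromosome 2 at position 98502786. Chromosomes 9, 2 and 11 held 106, 63 and 48 higher CpGs, or 0.658%, 0.246% and 0.180% of their shared CpGs. X held 6 of 1874 (0.320%), and each other autosome held between 2 and 23 (0.0231 to 0.0860%).

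**Figure D1:**
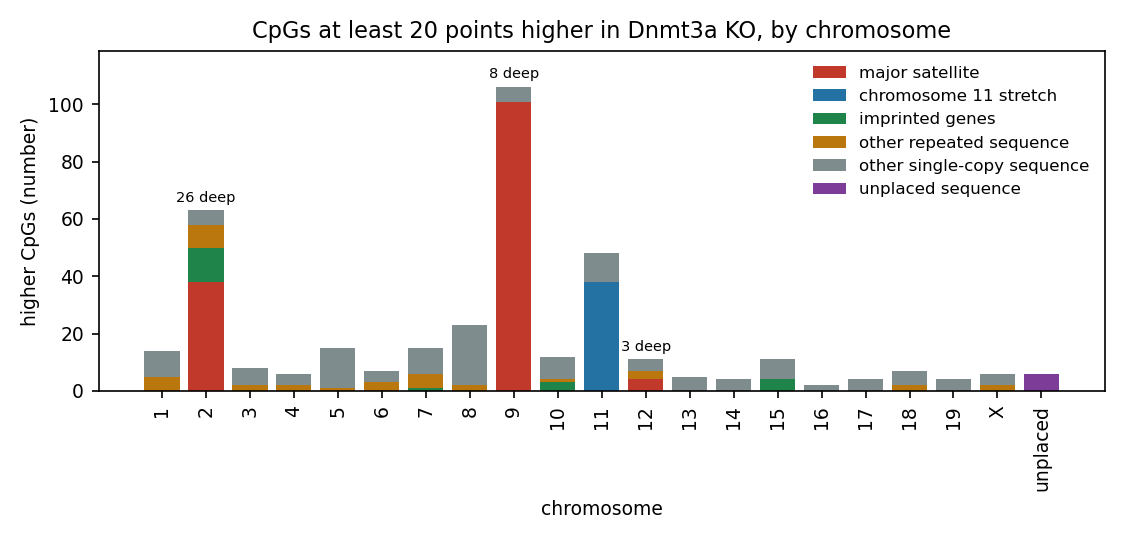
Number of CpGs at least 20 points higher in Dnmt3a KO on each chromosome, stacked by sequence group, with the number over 1000 wild-type reads ("deep") written above the bar. All 37 deep CpGs are on chromosomes 2 (26), 9 (8) and 12 (3).

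Of the 153 shared CpGs in satellite-like sequence, 143, or 93.5%, were higher in Dnmt3a KO. On average, 26.8% ± 7.36 of wild-type and 72.2% ± 10.8 of Dnmt3a KO reads were methylated at these (SD over 143 CpGs). In Dnmt TKO, 1416 of 1225305 reads were methylated, or 0.116% (Wilson interval 0.110 to 0.122%), so that a high level was seen in Dnmt3a KO, an intermediate level in wild type and almost none in Dnmt TKO. The higher satellite-like CpGs lay in 4 places, each bounded here by its first and last higher CpG.

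On chromosome 9, the first assembled base is 3000001, and 92 of 100 shared CpGs between 3000341 and 3038152 were higher. The 92 had means of 27.4% (wild type) and 71.5% (Dnmt3a KO), and all were satellite-like. Gene models here are predicted genes, among them Gm16869, Gm10722 and Gm11168. On chromosome 2, 43 of 57 shared CpGs between 98502421 and 98507482 were higher, over the predicted genes Gm10801 and Gm10800, with means of 28.1% and 72.7%. Of these 43, 38 were satellite-like and 26 had over 1000 wild-type reads. Among the other 14 shared CpGs, only that at 98503060 was satellite-like. A second place on chromosome 9, from 35112827 to 35113119, held 9 higher CpGs, at 24.9% and 76.2%, with the start of Gm5614 nearest at 23407 bp. A satellite-like CpG just beyond it, at 35113167, was not higher by the rule (32.2% and 41.7%). The fourth, on chromosome 12 from 3109911 to 3110099, held 4, at 20.3% and 69.9%, with the start of Gm9075 nearest at 27244 bp. The 4 places thus had wild-type means within 20.3 to 28.1% and Dnmt3a KO means within 69.9 to 76.2%. They did not all lie at a chromosome start. The chromosome 2 place began 95502420 bp, the second on chromosome 9 32112826 bp and that on chromosome 12 109910 bp from the first assembled base. A repeat period of 234 bases was the best match at 70 of 92, 23 of 43, 9 of 9 and 0 of 4 higher CpGs, in the order given.

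Among windows of 1000 bp with a CpG over 1000 reads, the window of chromosome 2 that starts at 98507001 held the most higher CpGs, all 15 of its shared CpGs, of which 13 were over that depth. Wild-type values ran from 16.7 to 30.5% and Dnmt3a KO values from 47.8 to 81.3%. In the neighbouring window at 98506001, 9 of 14 shared CpGs were higher, at means of 28.0% and 77.5%. The remaining 5, which were not satellite-like, had a mean difference of -3.64 points. Windows at 98502001 on chromosome 2 and at 3001001 on chromosome 9 held 8 and 9 higher CpGs, with means of 30.2% against 76.6% and of 27.7% against 75.2%. Among windows with no CpG of that depth, the one at 3000001 on chromosome 9 was the fullest, with 13 of 14 shared CpGs higher at 28.2% and 71.7%.

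The deepest higher CpG, at chr2:98507306, had 25787 wild-type, 43368 Dnmt3a KO and 132863 Dnmt TKO reads, of which 25.6%, 78.5% and 0.0933% were methylated. The largest difference above 1000 reads was at chr12:3109911, with 23.4% in wild type (242 of 1036 reads) against 87.8% in Dnmt3a KO (1001 of 1140 reads), a difference of 64.4 points (Newcombe interval 61.1 to 67.5). At 1000 reads or fewer the largest was at chr9:3027160, with 13.6% (3 of 22 reads) and 89.5% (34 of 38), a difference of 75.8 points with a far wider interval of 51.9 to 86.8. Both are satellite-like CpGs.

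Across the satellite, the difference was found at low and high depth alike. The 36 satellite-like CpGs over 1000 reads had means of 25.7% and 74.4%, and the 49 with 50 reads or fewer had 27.1% and 70.8%, of which 47 were higher. The means were also close between classes by count of the surrounding 32 bases in NCBIM37. These counts miss satellite copies that are not assembled, so they do not give the copy number in the cells. The 28 CpGs in a sequence found once had means of 25.4% and 72.7%. The 48 in sequences found 2 to 10 times had 28.0% and 68.0%, and the 77 in sequences found over 10 times had 27.5% and 70.9%. Of the 28, the 48 and the 77, 26, 44 and 73 were higher.

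Aligned to the unit, 151 of the 153 satellite-like CpGs fell at 8 positions, counted from 1 at the first printed base. Mean wild-type methylation at these positions lay between 25.1 and 30.8%, and in Dnmt3a KO between 61.7 and 75.3%. Position 61 had the smallest difference, 30.9 points over 22 CpGs, and position 207 the largest, 49.9 points over 20 CpGs. All 24 CpGs at position 1, all 18 at position 77 and all 14 at position 92 were higher. At positions 77, 195 and 207 the printed copy itself has no CG, while 18, 25 and 20 CpGs of other copies aligned there.

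**Figure D2:**
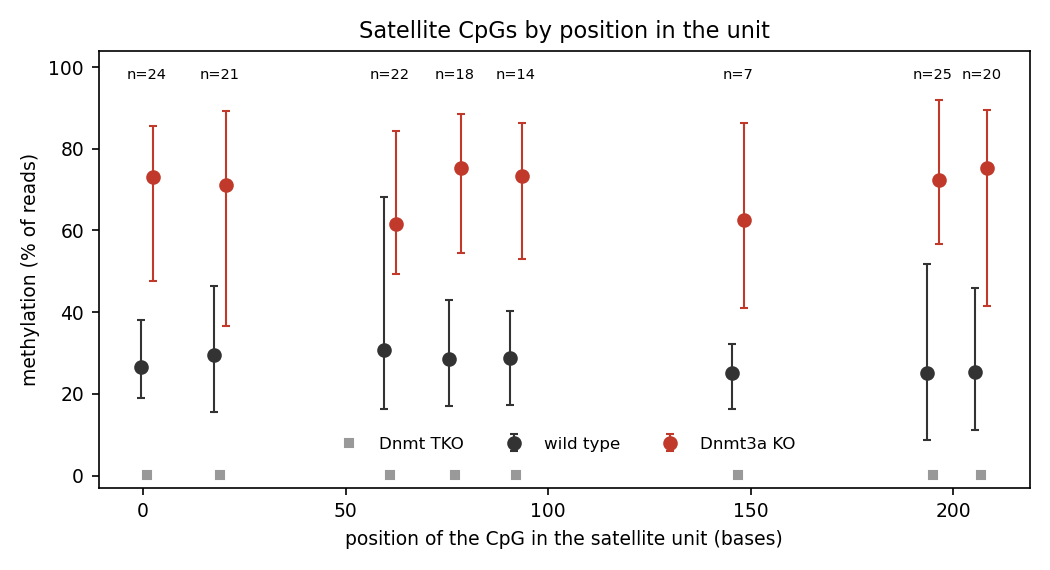
Methylation of satellite-like CpGs by position in the 234-base unit, with the mean (point) and the lowest and highest CpG (bar) for wild type and Dnmt3a KO, and methylated over all reads for Dnmt TKO (square). At each of the 8 positions the Dnmt3a KO mean (61.7 to 75.3%) is above the wild-type mean (25.1 to 30.8%).

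The 10 satellite-like CpGs that were not higher did not all behave alike. At chr2:98503060 both libraries were near 0, with 1.42% of 845 reads and 1.26% of 1750 reads. At chr9:3032278 both were high, with 68.2% and 66.7%. The other 8 were higher in Dnmt3a KO by 5.54 to 18.9 points.

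Read depth at the satellite also differed between the libraries, in another order than methylation. Satellite-like shared CpGs took, of every 1000000 CpG reads, 5026 of the wild-type, 19341 of the Dnmt3a KO and 132409 of the Dnmt TKO library, which is 3.85 and 26.3 times the wild-type share. Dnmt3a KO had more reads than wild type at 139 of the 143 higher satellite CpGs, against 2.56% of all shared CpGs. RRBS reads are anchored at MspI sites, yet 94.1% of the satellite-like CpGs lay at least 150 bp from the nearest CCGG of the assembly, against 0.148% of shared CpGs. The median GC content of the surrounding 200 bases was 35.8%, against 68.2%. The part of these depth differences in the methylation difference was not tested.

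**Figure D3:**
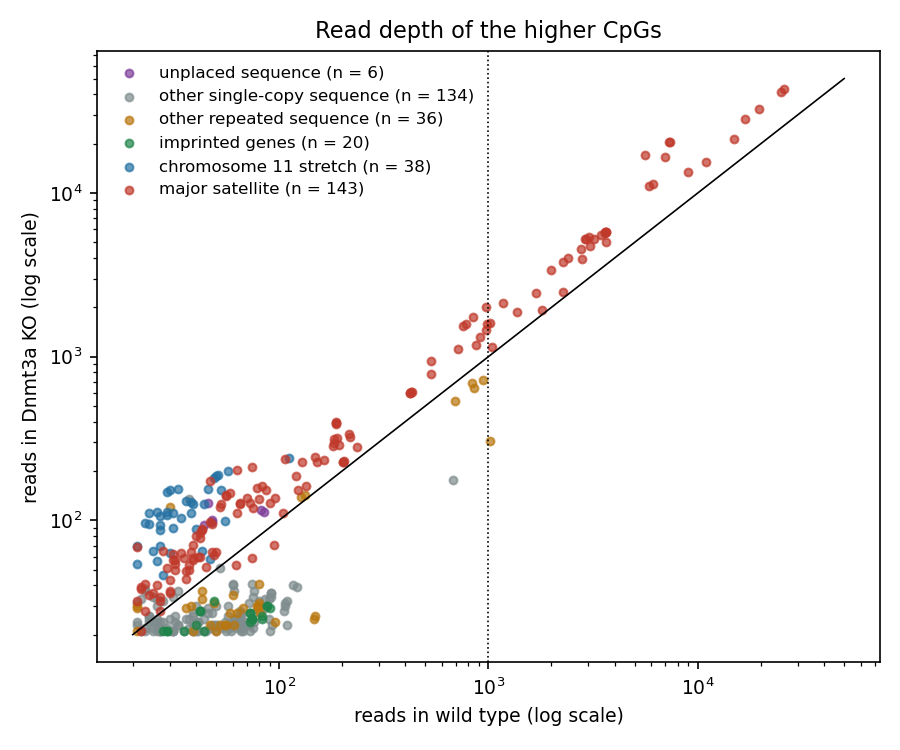
Wild-type and Dnmt3a KO reads at each of the 377 higher CpGs (log axes), coloured by sequence group, with a solid line of equal reads and a dotted line at 1000 wild-type reads. Satellite and chromosome 11 CpGs lie mostly above the line of equal reads, and imprinted and other single-copy CpGs mostly below it.

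Of the 332 shared CpGs over 1000 wild-type reads that were not satellite-like, 1 was higher (0.301%), and their means were 4.28% and 4.37%. Most of them, 263, lay on chromosome 17 between 39979959 and 39985654, where 0 were higher and the means were 2.09% (wild type) and 2.00% (Dnmt3a KO).

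At the start of chromosome 11, 38 higher CpGs lay between 3026970 and 3084278, all with 1000 wild-type reads or fewer. Wild-type methylation averaged 47.2% ± 9.20 and Dnmt3a KO methylation 77.3% ± 8.56 (SD over 38 CpGs), while in Dnmt TKO 9 of 5209 reads (0.173%) were methylated. Sfi1, which encodes a centrosomal protein, held 28 of them, 15 in its exons. The processed transcript Pisd-ps1 held 9, and Gm11399 and Gm11400, which lie within Sfi1, held 5 and 4. The window at 3032001, in exon sequence of Sfi1, had 8 of 11 shared CpGs higher, with wild-type levels of 40.9 to 53.1% and Dnmt3a KO levels of 69.5 to 86.8%.

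The stretch had 155 shared CpGs in all, and the 117 that were not higher had a mean difference of 0.0521 points. Distance from the MspI sites divided them. Of 91 CpGs at least 150 bp from a CCGG, 37 were higher and the mean changed from 48.6% to 63.4%. Of 64 nearer ones, 1 was higher and the means were 65.1% and 62.1%. Dnmt3a KO had more reads than wild type at all 38 higher CpGs, with a median of 108.5 reads against 31, and Dnmt TKO had 130. Relative to all CpG reads, the 38 took 6.84 times as many in Dnmt3a KO as in wild type. None of them was satellite-like.

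Over all shared CpGs with sequence, 184 of 485 at least 150 bp from a CCGG were higher (37.9%), against 187 of 326300 nearer ones (0.0573%). Outside the satellite-like sequence and the chromosome 11 stretch, 12 of 250 distant CpGs were higher (4.80%), and their means were 14.7% and 14.6%. These 2 kinds of sequence held 172 of the 184 distant higher CpGs.

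**Figure D4:**
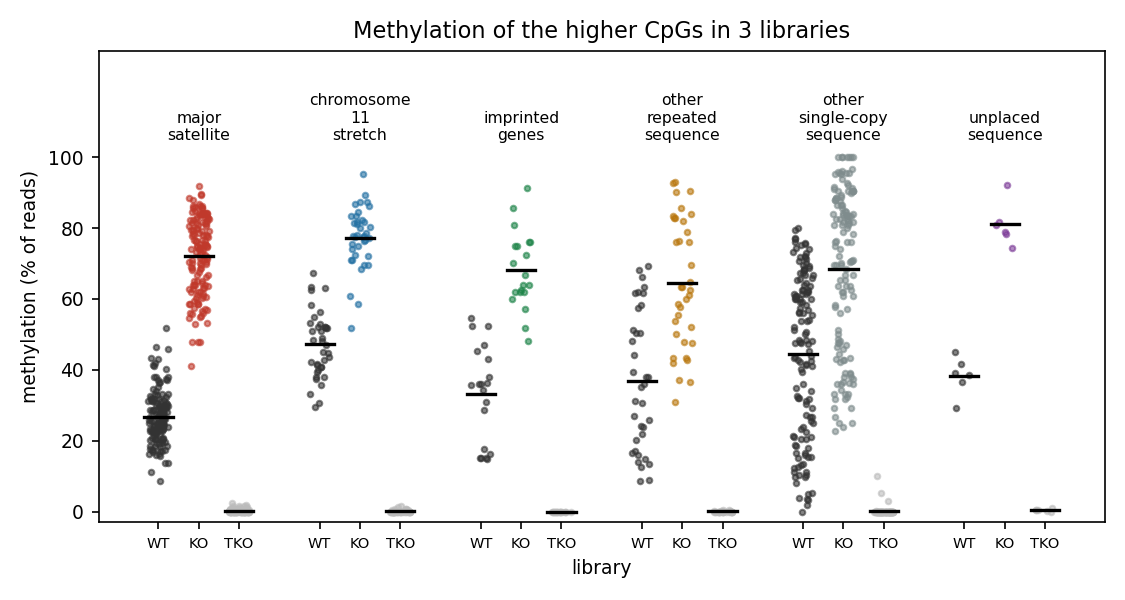
Methylation of each higher CpG in wild type (WT), Dnmt3a KO (KO) and Dnmt TKO (TKO), in the 6 sequence groups, with the mean as a line. WT and KO values chose the CpGs, and the WT means run from 26.8% (satellite) to 47.2% (chromosome 11), the KO means from 64.4 to 81.0%, and the TKO values lie at 10% or lower.

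Imprinted genes were examined through a list of 31, of which 23 had shared CpGs within 5000 bp, and 4 of these had higher CpGs. Summed gene by gene, 20 of 757 shared CpGs near the list were higher, against 377 of 327114 among all shared CpGs. The 757 counts some CpGs more than once, such as the 35 that both Igf2r and Airn hold, so it exceeds the number of different CpGs. The list as a whole was lower in Dnmt3a KO in 19 of 23 genes, with a median difference of -2.54 points. Overlapping genes on the list share CpGs, so the 23 are not all separate loci. All 20 higher CpGs were of single copy, had 1000 reads or fewer and had fewer reads in Dnmt3a KO than in wild type, with medians of 73 and 25.

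Nnat, a paternally expressed gene for a membrane proteolipid that lies inside Blcap, held 12 of the 20, among 35 shared CpGs within 5000 bp that had means of 18.7% (wild type) and 33.8% (Dnmt3a KO). The 12 lay between 157385966 and 157387448 on chromosome 2, in exons, with a wild-type mean of 27.1% and a Dnmt3a KO mean of 66.0%. In Dnmt TKO, 0 of 194 reads were methylated, with a Wilson upper limit of 1.94%. The 6 printed Nnat CpGs had the lowest wild-type values, from 14.9 to 17.6% of 73 or 74 reads. In Dnmt3a KO the same 6 had 48.1 to 64.0% of 24 to 27 reads. A shared CpG among them, at 157386153, had 16.4% and 34.6% and fell short of the rule. These CpGs lie near enough to share reads and are not separate measurements. Another 5, from 157387393 to 157387448, had 34.4 to 43.2% and 66.7 to 80.8%.

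Trappc9, whose introns hold the imprinted Peg13, had 4 higher CpGs in an intron, those printed. The 21 shared CpGs in or near the whole gene had means of 76.4% and 75.5%, a difference of -0.984 points. Beside the 4, the other 2 shared CpGs in the window at 72640001 had a mean difference of 17.3 points. The 4 had 46.9 to 54.8% in wild type (40 to 49 reads) and 75.0 to 91.3% in Dnmt3a KO (23 to 32 reads), with 0 of 61 reads in Dnmt TKO. Plagl1, an imprinted zinc finger gene, had 3 higher CpGs of 8 shared, within a run of 10 bases in an exon, with 31.0 to 37.9% of wild-type reads and 13 of 21 Dnmt3a KO reads methylated at each. These 3, too, lie near enough to share reads. Inpp5f, which encodes an inositol phosphatase, had 1 of 6, at chr7:135831772 in an intron, with 28.6% (10 of 35 reads) and 57.1% (12 of 21 reads).

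**Figure D5:**
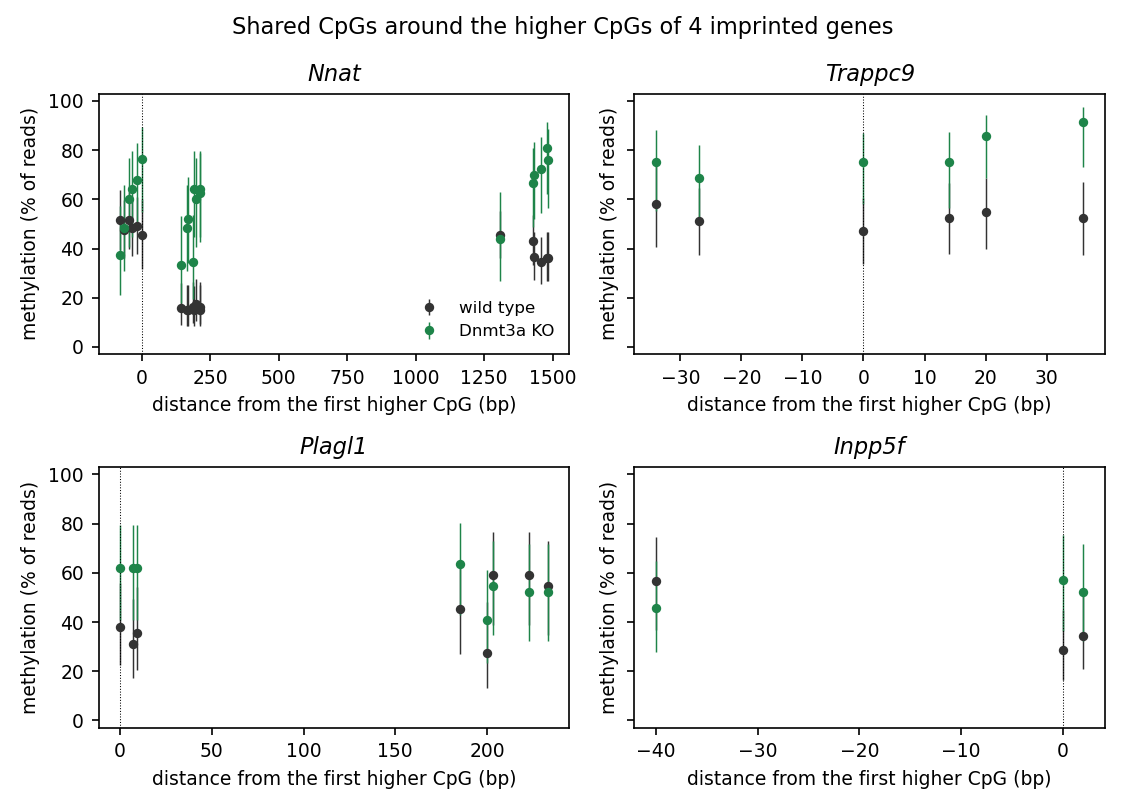
Methylation in wild type and Dnmt3a KO of all shared CpGs within 1000 bp of the higher CpGs of 4 imprinted genes, by distance from the first higher CpG (dotted line), with Wilson 95% intervals as bars. Around Nnat the 6 higher CpGs between 166 and 213 bp have 14.9 to 17.6% in wild type and 48.1 to 64.0% in Dnmt3a KO, with a seventh shared CpG among them at 16.4% and 34.6%, while at Plagl1 other shared CpGs overlap in both libraries.

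Near the genes of both other lists, 0 of 124 (germline) and 0 of 338 (methylation proteins) shared CpGs were higher, numbers too small to set apart from the 0.115% of all shared CpGs. Of 14 germline genes, whose promoters are silenced by methylation in somatic cells, 10 had shared CpGs and all 10 were lower on average in Dnmt3a KO, with a median difference of -11.5 points. Of 9 genes for proteins that take part in placing, copying or removing methylation, 8 were lower and the median difference was -0.260 points.

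Outside the satellite, 36 higher CpGs lay in other repeated sequence, and 24 of these 36 had over 10 copies of the surrounding 32 bases. No repeat annotation was used, so these families are not named. Their means were 36.9% (wild type) and 64.4% (Dnmt3a KO). Only 27 different 32-base sequences surrounded the 36, and 6 of those sequences held 15 CpGs. The 2 sequences with the most higher CpGs were as follows, with the CpG in capitals.
Repeat with 3243 copies: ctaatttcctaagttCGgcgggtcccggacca
Repeat with 3042 copies: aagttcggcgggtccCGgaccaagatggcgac
The former surrounded 4 higher CpGs on chromosomes 2, 10 and 12, and the latter 3 on chromosomes 1, 2 and 12, and both overlap in sequence. Across all 12 shared CpGs with the former sequence, the difference ran from -20.0 to 33.5 points, and 4 of the 12 were lower in Dnmt3a KO. Median depth of these 12 was 63.5 and 27 reads. Over all 94 shared CpGs with any of the 27 sequences, the means were 43.2% and 51.3%, and 34 were lower. In 5 of the 36 CpGs, the place was the chromosome 2 stretch between satellite-like CpGs, where each had 692 to 1020 reads in wild type.

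The 134 CpGs in other single-copy sequence were spread widely and lay near the limit of the rule. Means were 44.6% (wild type) and 68.5% (Dnmt3a KO), with a mean difference of 23.9 ± 4.31 points (SD). Only 12 of the 134 were higher by 30 points or more, against 127 of the 143 satellite CpGs. Their median depth was 48 reads in wild type and 24 in Dnmt3a KO, and 105 of them had 30 or fewer reads in Dnmt3a KO. Just 2 had over 50 reads in both libraries, against 96 of the satellite CpGs. Their differences carried a median Newcombe interval 40.0 points wide, and 89 of the 134 intervals lay above 0. The same read counts chose these CpGs, which raises that number, so it is no test of the differences.

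Of these 134, 110 had no other higher CpG within 50000 bp. In the windows of 99 of the 110, other shared CpGs were present. The mean of those neighbours was lower in Dnmt3a KO in 77 windows and higher in 22, with a median of -8.01 points. By construction none of these neighbours was itself higher by 20 points, and all shared CpGs had a mean difference of -3.03 points. The largest difference among them, chosen after its value was seen, was 47.9 points in an intron of Maml3, a Notch coactivator, from 41.0% of 39 reads to 88.9% of 27 reads. The exons of Plec, which encodes the linker protein plectin, held 4 of the 134, with means of 33.8% and 56.9% over 7107 bp. The other 15 shared CpGs of that stretch had a mean difference of -8.21 points. Mid1, at the boundary of the pseudoautosomal region of X, held 5 higher CpGs of 169 shared, of which 3 were single copy. The 5 had means of 42.7% and 65.7%, the 3 had 31.5% and 54.2%, and the other 164 had a mean difference of -6.83 points.

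Unplaced sequence held 6 higher CpGs, all on the concatenated sequence that mm9 calls Un_random, where 85 CpGs were shared. Methylation was 29.2 to 45.1% (wild type) and 74.5 to 92.2% (Dnmt3a KO), with 44 to 85 and 93 to 128 reads. In Dnmt TKO 9 of 1704 reads were methylated, or 0.528%. Of the 6, 5 lay between 5495811 and 5496410, among 6 shared CpGs, and the remaining CpG lay at 3922199. Their share of CpG reads was 4.05 times as large in Dnmt3a KO as in wild type and 24.7 times as large in Dnmt TKO. The other unplaced sequences held no higher CpG.

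By gene annotation, 51.5% of the higher CpGs were in exons, 27.3% in introns and 19.6% between genes, close to the 51.8%, 25.8% and 22.3% of all shared CpGs. They were nearer to starts of protein-coding genes less often, with 32.1% within 1000 bp against 63.9%, and this share was 8.33% outside satellite and unplaced sequence. At the limit of the rule, the CpGs just inside were at chr1:82583341 in Col4a4, chr11:19536402 and chr14:52626511 in Zfp219, each 20 points higher. The CpGs just outside were at chr11:3085085 in Sfi1 with 19.96 points, chr8:15038100 with 19.93 and chr17:45655837 in Aars2 with 19.92. Of these 6 differences, 4 had a Newcombe interval that included 0.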

How the data were processed

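The authors cut genomic DNA with MspI, took fragments of 150 to 250 and 250 to 350 bp, and sequenced them after bisulfite conversion. Per the labels and methods, reads were trimmed with Trim Galore and aligned to mm9 with Bowtie through QuasR (versions not given in the sources used here), only unique mappers were kept, identical reads from PCR were filtered, and CpGs at SNPs were removed. Single CpGs with up to 132863 reads leave it unclear whether identical reads were removed from these RRBS libraries. The deposited files give for each CpG a read count, a count of methylated reads and their fraction. The fraction the authors deposited was recomputed from the counts as a percentage. CpGs with over 20 reads in both libraries were used, as in the study. Wilson (share) and Newcombe (difference) intervals at 95% count reads on the same molecule, and PCR copies, as independent. No test was run, because each genotype has 1 library.

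All 326785 shared CpGs outside unplaced sequence were CG in NCBIM37. Genes come from GENCODE vM1. The reference had no repeat masking, so copies of the 32 bases around each CpG were counted instead, and unplaced sequence was not searched. The satellite unit starts at the first higher CpG of chromosome 9 with the commonest repeat period (234 bases), and alignments used Biopython 1.88. Windows named were drawn from the 6 with the most higher CpGs among those with a CpG over 1000 wild-type reads. Others came from the 12 with the most among the remaining windows, and from those within 5000 bp of listed genes. Single CpGs were drawn from the 3 largest rises per depth class and the 3 on each side of the limit. Not all of these are named, and some loci outside these rules are, among them Maml3, Plec and Mid1. Members, lists, groups and stretches (higher CpGs within 50000 bp of each other) were chosen with earlier results of these data known. Selection of raised CpGs and the Newcombe interval were tested on simulated large rises at CpGs with over 50 reads in both libraries. Only 112 of the 377 higher CpGs reach that depth, so smaller rises at lower depth were not covered. The Wilson interval was tested on simulated reads at the real depths.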

Additional observations from a re-analysis of the deposited data

How the results depend on the processing

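The count of higher CpGs rested on the minimum depth and the limit of the difference. In place of 377, there were 3345 with more than 10 reads in both libraries, 112 with more than 50, 186 at a limit of 30 points and 1498 at 10 points. The number of windows was 2630, 29 and 65 in place of 208 for the first 3 of these, and the mean difference 28.2, 43.1 and 44.4 points in place of 33.9. Without satellite-like CpGs, an alternative chosen after seeing the data, 234 CpGs remained, with a mean difference of 26.9 points and 0.284% methylated reads in Dnmt TKO in place of 0.118%. The mean difference was 31.6 points when the 1% of CpGs deepest in wild type was left out, 28.3 with each window counted once and 47.3 as methylated over all reads. As a mean over CpGs, Dnmt TKO had 0.221%. The cause of these shifts was not tested. The remaining 12 of 29 alternatives stayed within 1.5 times the count or within the interval of the value. No paired analysis was possible because each genotype has 1 library. Depth limits the single-copy CpGs, since 105 of 134, and 19 of 20 near imprinted genes, had 30 or fewer Dnmt3a KO reads.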
